A study of Arabidopsis thaliana with 29 samples.

Results

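Cytosolic ribosomal protein genes of Arabidopsis thaliana were followed through leaves sprayed with abscisic acid (ABA) or with either of 2 synthetic ABA receptor agonists. The genes are those of the acidic stalk (P0, P1, P2 and P3, 11 genes), of large subunit proteins L3 to L10a (21 genes) and of small subunit proteins S2 to S9 and S18 (20 genes), 52 of the 33559 genes in the table, chosen by their locus identifiers. All 52 were above the low-level filter, which kept 18521 genes with at least 1 FPKM (fragments per unit of transcript length and of library size) in at least 2 libraries. Three-week-old, soil-grown plants of the wild-type accession Col-0 were sprayed with dimethyl sulfoxide (DMSO, the solvent control), (+)-ABA, AMF1 (the compound that the study's text calls AMF1β) or AMF4, each compound at 10 µM, and leaves were taken after 6, 24 or 72 h for RNA sequencing. The AMF compounds are fluorinated derivatives of the sulfonamide agonist AM1 and differ from each other in the number and position of the fluorine atoms. No other genotype was used for these libraries. There were 29 libraries in 12 groups. These were 3 of each treatment at 6 h, 3 each of DMSO, ABA and AMF1 and 2 of AMF4 at 24 h, and, at 72 h, 1 of DMSO, 1 of ABA, 2 of AMF1 and 2 of AMF4. The labels do not say whether libraries of a group came from separate plants, and the study's methods speak of duplicate biological replicates, fewer than the 3 libraries of several groups. The p-values therefore measure the spread between libraries, some of which may be technical.

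Each ribosome carries 1 copy of most of its proteins, and a plant genome encodes nearly every one of these proteins by several gene copies. The stalk on the large subunit is the exception in makeup: P0 anchors it to the ribosomal RNA, P1 and P2 attach to P0 as dimers, P3 is a plant form of these acidic proteins, and together they recruit the GTPases that drive elongation. Ribosomal protein genes are among the most strongly transcribed genes of growing tissue, their transcripts are known to move together, and the TOR kinase, which acts on S6 through the S6 kinases, is a known regulator of ribosome production in eukaryotes.

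Plant ribosomal protein promoters are known for 2 short elements, the telo-box (AAACCCTA) and site II (TGGGCC or TGGGCT). Both were searched on both strands, together with the core of the ABA response element (ACGTGGC or ACGTGTC), from 250 bases before to 50 bases after each annotated gene start in the RefSeq annotation of TAIR10.1, where all 52 genes were matched by locus tag. The 4 promoters here are the 250 bases before the start of a P1 gene, an L6 gene and the major and minor S9 copies. Each is read 5′ to 3′ on the strand of its gene, with matches on either strand in capitals. They lie at chr1:51211-51460 (AT1G01100, minus strand), chr1:6378581-6378830 (AT1G18540, minus strand), chr5:4936430-4936679 (AT5G15200, minus strand) and chr5:15949660-15949909 (AT5G39850, plus strand), and none overlaps an exon of another gene.
P1 AT1G01100: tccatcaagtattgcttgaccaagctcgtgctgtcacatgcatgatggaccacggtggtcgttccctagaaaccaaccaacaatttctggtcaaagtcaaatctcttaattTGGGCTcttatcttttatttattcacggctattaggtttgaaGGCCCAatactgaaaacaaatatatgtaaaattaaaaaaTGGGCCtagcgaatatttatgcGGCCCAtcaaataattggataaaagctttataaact
L6 AT1G18540: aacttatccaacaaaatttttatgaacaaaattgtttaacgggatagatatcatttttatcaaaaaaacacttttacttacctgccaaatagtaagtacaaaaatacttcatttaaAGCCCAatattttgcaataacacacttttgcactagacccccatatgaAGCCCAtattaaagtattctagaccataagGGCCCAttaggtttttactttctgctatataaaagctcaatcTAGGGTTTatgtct
S9 AT5G15200: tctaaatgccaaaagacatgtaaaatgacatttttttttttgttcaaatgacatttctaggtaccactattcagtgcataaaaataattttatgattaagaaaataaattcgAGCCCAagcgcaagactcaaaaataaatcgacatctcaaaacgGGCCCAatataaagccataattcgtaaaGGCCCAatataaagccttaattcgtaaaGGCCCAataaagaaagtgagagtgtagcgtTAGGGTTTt
S9 AT5G39850: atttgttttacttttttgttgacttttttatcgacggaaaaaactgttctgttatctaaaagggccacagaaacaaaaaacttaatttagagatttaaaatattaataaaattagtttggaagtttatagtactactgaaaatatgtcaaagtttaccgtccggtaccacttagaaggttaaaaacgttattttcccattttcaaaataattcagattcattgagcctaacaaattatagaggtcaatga
The major S9 copy holds 4 site II matches and 1 telo-box, the L6 gene 3 and 1 and the P1 gene 4 site II matches, and the minor S9 copy none in these 250 bases. With the 50 bases after the start, the searched window of the minor copy holds 2 site II matches and no telo-box, and it counts below as a gene with site II. The searched window of the P1 gene also holds a telo-box, and it counts below as a gene with both elements. A site II match was found in 43 of the 52 windows (82.7%) against 21.7% of the 27443 windows of all protein-coding genes. A telo-box was found in 22 (42.3%) against 6.22%, and both in 18 (34.6%) against 2.2%. The ABA response element core was found in 4 windows (7.69%), beside 7.64% of all windows. Site II was present in 9 of 11 stalk, 18 of 21 large subunit and 16 of 20 small subunit genes, and the telo-box in 3, 7 and 12 of them. A match describes the letters of a window and not a bound site. The windows of P2 AT2G27720, S5 AT2G37270 and L7 AT3G13580 held neither element, and these genes too were lower at 6 h with every compound. A link between the elements and the changes below was not tested.

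The 52 genes ranged widely in level. Mean FPKM, a length-normalised level, over the 29 libraries was at least 100 for 27 genes, between 10 and 100 for 21, between 1 and 10 for 2 and below 1 for 2. The highest means were 266 FPKM for L10 AT1G14320, known as SAC52, 243 for S8 AT5G20290, 197 for L8 AT2G18020 and 197 for S9 AT5G15200. The lowest were 0.683 for S8 AT5G59240, 0.833 for P0 AT2G40010, 5.93 for L10 AT1G26910 and 8.82 for S9 AT5G39850, each the minor copy of a highly expressed family.

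The control libraries taken at 6 h held the most ribosomal protein transcripts. The mean of log2(FPKM + 1) over the 52 genes was between 6.84 and 7.03 in the 3 DMSO libraries at 6 h and between 5.26 and 6.00 in the 9 compound-treated libraries at 6 h, so these ranges did not overlap. In DMSO it was 6.03, 5.53 and 6.52 in replicates 1, 2 and 3 at 24 h and 6.16 in the library at 72 h, and in AMF4 at 72 h it was 6.50 to 6.54. The 52 genes made up 0.811 to 0.986% of all FPKM in DMSO at 6 h, 0.337 to 0.519% in the treated libraries at 6 h, 0.362 to 0.625% in DMSO at 24 h and 0.618 to 0.748% in AMF4 at 72 h. Every DMSO library at 6 h was above every one of the other 26 libraries in 30 of the 52 genes. This was counted for the 52 genes only, with no share of all genes to set beside it, and is a description. The range of the treated libraries at 6 h overlapped that of DMSO at 24 h.

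**Figure D1:**
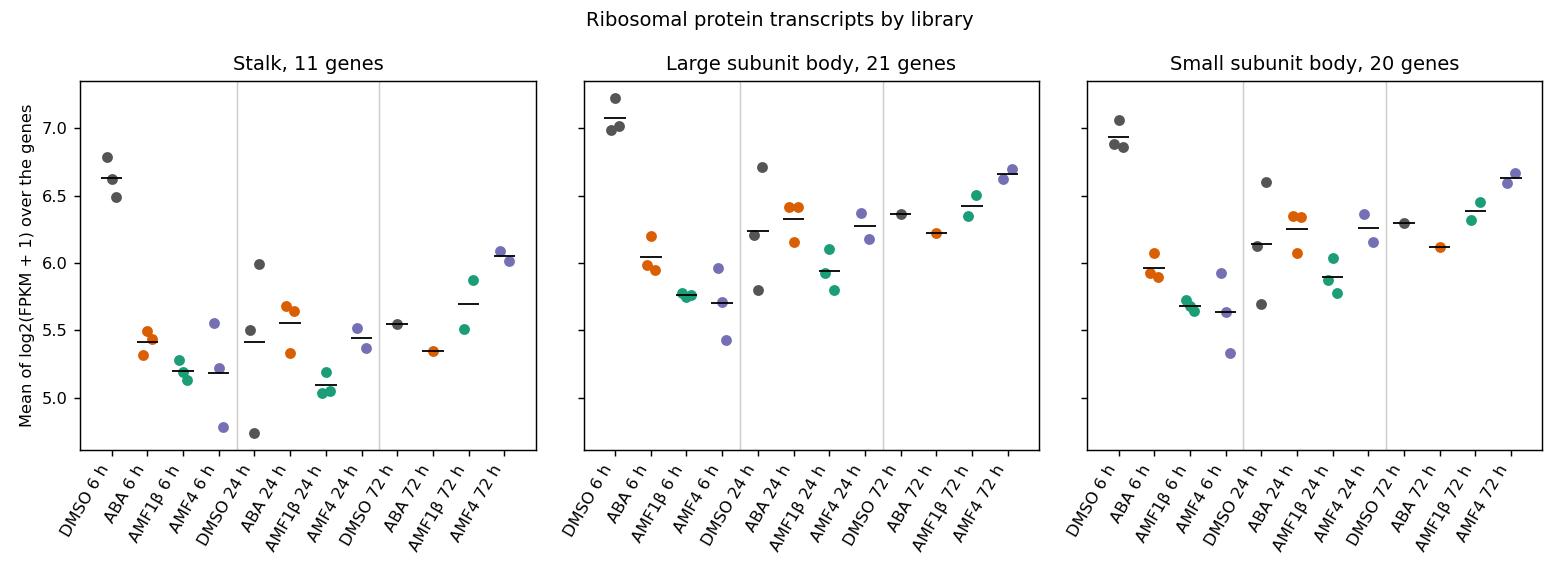
Mean log2(FPKM + 1) of the stalk, large subunit and small subunit genes in each of the 29 libraries, by treatment and time (AMF1 is labelled AMF1β in all plots). Each point is 1 library and each line a group mean, and the 3 DMSO libraries at 6 h lie highest in all panels (6.49 to 6.79 for the stalk), above every other group.

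Stalk and body means were both highest in DMSO at 6 h and both lower in all treated libraries at 6 h. The stalk mean was 6.63 ± 0.15 on the log2(FPKM + 1) scale (SD, n = 3) in DMSO at 6 h, 5.42 ± 0.09 in ABA, 5.20 ± 0.08 in AMF1 and 5.19 ± 0.39 in AMF4. The large subunit mean was 6.98 to 7.23 in DMSO and 5.95 to 6.20, 5.75 to 5.77 and 5.43 to 5.96 in ABA, AMF1 and AMF4, and the small subunit mean was 6.86 to 7.06 against 5.90 to 6.07, 5.64 to 5.72 and 5.33 to 5.93. The stalk mean minus the body mean of the same library was -0.52 to -0.14 in DMSO at 6 h, -0.65 to -0.39 in the treated libraries at 6 h, -1.01 to -0.66 in the 24 h libraries and -0.67 to -0.52 in AMF4 at 72 h. At 6 h the ranges of control and treated libraries overlapped, and at 24 h all libraries, controls included, were below the 6 h libraries. With AMF1 the median change from 6 to 24 h was -0.10 for the stalk and 0.16 and 0.15 for the large and small subunit, and no stalk gene passed limma there, with 0 of 11 at an unadjusted p under 0.05. Stalk transcripts are the shorter ones, with a median of 860 nt (724 to 1477) against 1235 nt for the large and 1148.5 nt for the small subunit genes. Among 1853 tested genes of over 700 to 1000 nt other than cytosolic ribosomal protein genes, the median log2 fold change from DMSO at 6 h was -0.20 with ABA, -0.16 with AMF1 and -0.13 with AMF4. The part of length in the stalk values was not tested.

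The first question of the design was what each compound changed relative to DMSO. After 6 h, nearly all 52 genes were lower with every compound than in DMSO. No library was taken before spraying, so a change from the level before treatment cannot be read. In comparisons with DMSO, fell and rose mean lower and higher than in DMSO at the same time. With ABA 49 of 52 were lower at an adjusted p under 0.05 (limma on log2(FPKM + 1) with Benjamini-Hochberg adjustment over the 18521 genes, of which 9.04% were lower), with AMF1 51 (8.89% of all genes) and with AMF4 50 (12.4%), and none was higher. The lower genes were 10, 11 and 11 of the 11 stalk genes with ABA, AMF1 and AMF4, 20, 21 and 21 of the 21 large subunit genes, and 19, 19 and 18 of the 20 small subunit genes. All 52 log2 fold changes were below 0 with each compound, while the median over all tested genes was 0.01, 0.05 and 0.09. Median changes were -1.32, -1.49 and -1.51 for the stalk, which is 2.499-, 2.82- and 2.85-fold lower, -1.05, -1.38 and -1.39 for the large subunit (2.06-, 2.61- and 2.62-fold lower) and -1.02, -1.23 and -1.34 for the small subunit (2.03-, 2.34- and 2.54-fold lower). With a fold change below 0.5 required as well, 34, 43 and 44 genes were lower, beside 3.24, 3.28 and 4.35% of all genes. In 51 genes with each compound every treated library was below every DMSO library, beside 17.4, 16.9 and 14.6% of all genes. The 3 comparisons share their DMSO libraries, so they are not independent of each other. Fold changes on the log2(FPKM + 1) scale understate changes of low genes. In whole-leaf RNA, fewer cells of a type and less transcript per cell cannot be told apart.

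P1 and P2, the mobile acidic dimers of the stalk, fell in all 6 gene copies with every compound. P1 AT1G01100 was at 361, 295 and 273 FPKM in DMSO at 6 h, at 109, 140 and 121 in ABA, at 127, 117 and 107 in AMF1 and at 156, 134 and 76.97 in AMF4. The groups did not overlap, and the log2 fold change was -1.32, -1.39 and -1.38 (SE 0.25, limma adjusted p = 0.000687, 0.000515 and 0.000355). The other P1 copies fell as well: AT4G00810 by 1.46, 1.78 and 1.72 on the log2 scale (SE 0.31, limma adjusted p = 0.00225, 0.000498 and 0.000431) and AT5G47700 by 1.54, 1.66 and 1.48 (SE 0.29, limma adjusted p = 0.00074, 0.00044 and 8e-04). AT5G47700 was at 237 to 287 FPKM in DMSO and at 75.2 to 103, 77.1 to 88.3 and 50.8 to 148 in ABA, AMF1 and AMF4, the AMF4 libraries being the most spread. P2 AT2G27710 was at 297, 235 and 225 FPKM in DMSO, 81.4, 95.6 and 88.0 in ABA, 79.2, 74.2 and 72.2 in AMF1 and 116, 86.0 and 51.7 in AMF4. It fell by 1.496, 1.72 and 1.63 (SE 0.28, limma adjusted p = 0.000636, 0.000194 and 0.000227), and its neighbour on the chromosome AT2G27720 fell by 1.46, 1.49 and 1.53 (SE 0.27, limma adjusted p = 0.000582, 0.000554 and 0.000296). AT3G44590, the minor P2 copy at 24.0 to 27.1 FPKM in DMSO, fell by 1.06, 1.49 and 1.51 (SE 0.27, limma adjusted p = 0.00798, 0.000614 and 0.000355).

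P3, the plant form of the acidic proteins, was lower by a similar factor. The major P3 copy AT5G57290 was at 248, 216 and 191 FPKM in DMSO, at 68.6, 79.8 and 81.6 in ABA, at 79.4, 64.1 and 65.1 in AMF1 and at 100, 64.9 and 54.0 in AMF4, again with no overlap between control and treated libraries. Its log2 fold change was -1.49, -1.64 and -1.61 (SE 0.32, limma adjusted p = 0.00216, 0.0012 and 0.000937). AT4G25890 went from 65.4 to 72.4 FPKM in DMSO to 24.3 to 33.1, 19.8 to 26.4 and 13.9 to 29.9, a log2 fold change of -1.27, -1.58 and -1.85 (SE 0.32, limma adjusted p = 0.00676, 0.0015 and 0.000242). P0, the anchor of the stalk, is encoded mainly by AT3G09200, which was at 286, 320 and 249 FPKM in DMSO, 114, 128 and 113 in ABA, 118, 111 and 115 in AMF1 and 116, 97.2 and 94.3 in AMF4. It fell by 1.25, 1.30 and 1.46 (SE 0.18, limma adjusted p = 6.34e-05, 6.46e-05 and 1.25e-05), the lowest adjusted p-values of the stalk. The minor P0 copy AT3G11250, at 20.6 to 23.7 FPKM in DMSO, fell by 0.79, 0.97 and 0.92 (SE 0.17, limma adjusted p = 0.00203, 0.00044 and 0.000452). AT2G40010, at 1.33 to 2.03 FPKM in DMSO, fell with AMF1 and AMF4 (by 0.74 and 0.81, SE 0.18, limma adjusted p = 0.00559 and 0.00197) and had a log2 fold change of -0.26 with ABA (adjusted p = 0.341). Of its transcript's 50-mers 42% are shared with AT2G40008, so its reads may belong to either gene.

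**Figure D2:**
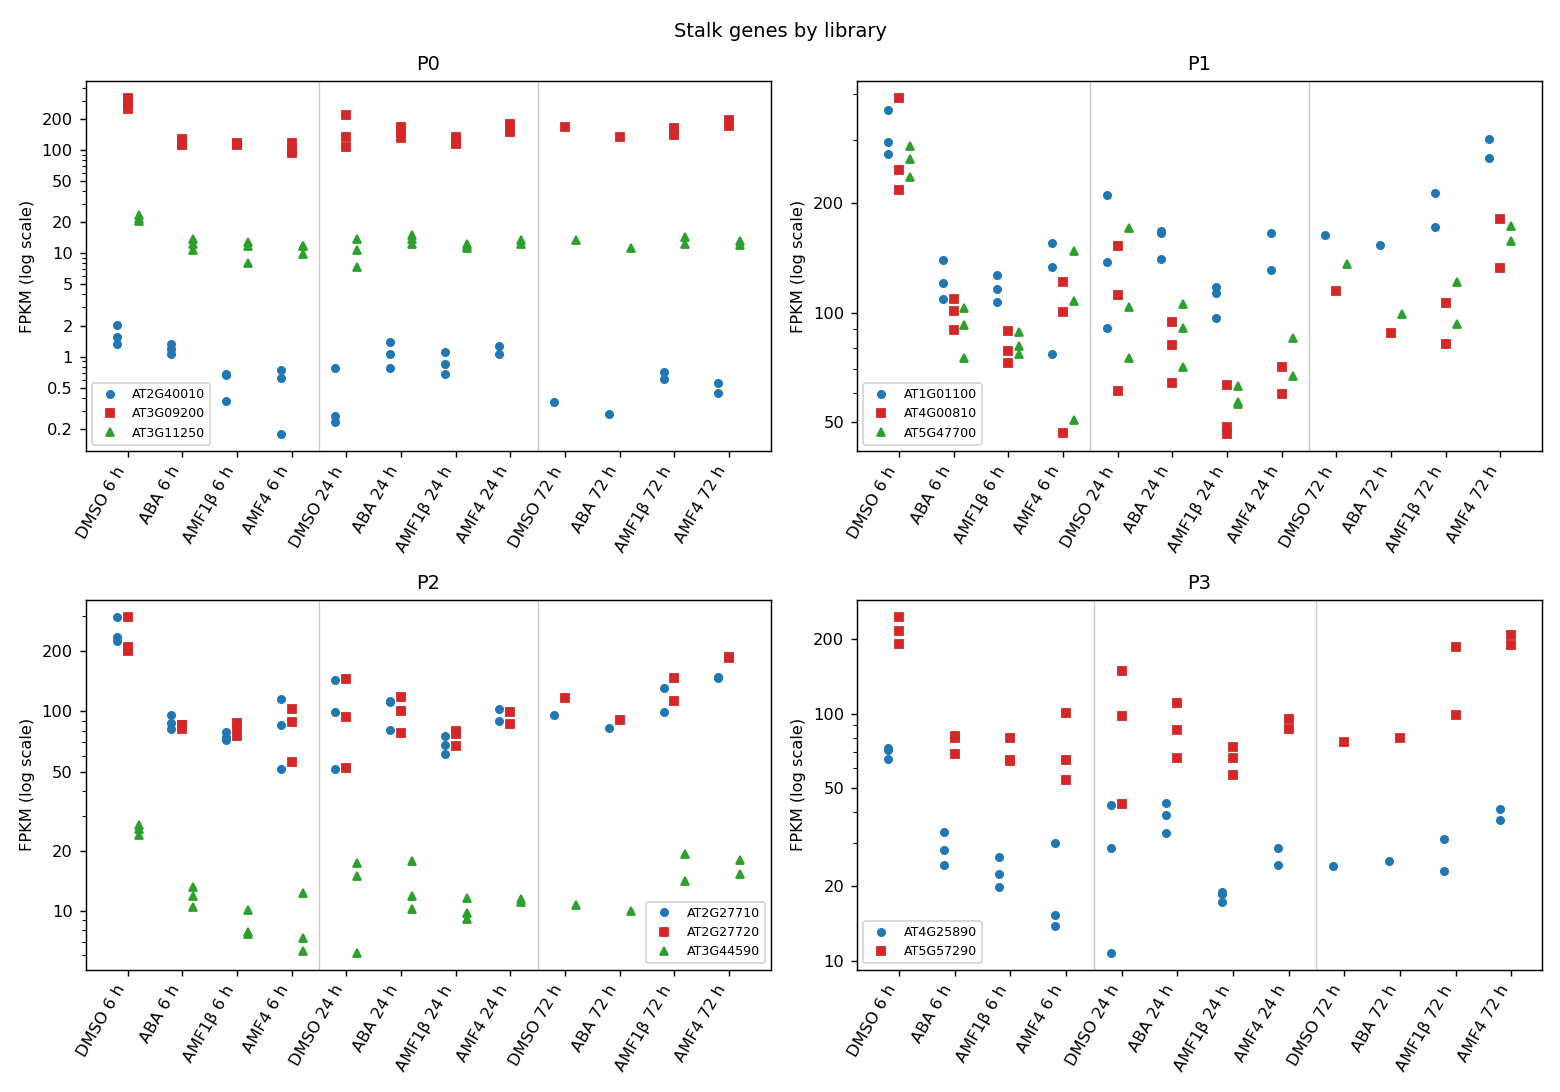
FPKM of the stalk genes in every library on a log axis, by treatment and time, with a point for each library. In DMSO at 6 h P1 AT1G01100 lies between 273 and 361 FPKM, and the 9 treated libraries at 6 h lie between 76.97 and 156.

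Among large subunit genes the largest falls were shared by several proteins. L10a AT2G27530, known as PGY1 and part of the mobile L1 arm, was at 232, 247 and 264 FPKM in DMSO, 93.6, 121 and 88.5 in ABA, 82.0, 78.6 and 75.3 in AMF1 and 106, 69.5 and 61.7 in AMF4, a log2 fold change of -1.30, -1.64 and -1.67 (SE 0.24, limma adjusted p = 0.000715, 0.000102 and 5.13e-05). L5, which carries the smallest ribosomal RNA into the large subunit, has 2 genes here: AT5G39740 fell by 1.19, 1.55 and 1.61 (SE 0.18) and AT3G25520 by 1.07, 1.54 and 1.61 (SE 0.21). L4 AT5G02870, which lines the exit tunnel, fell by 1.17, 1.41 and 1.39 (SE 0.19), and L8 AT2G18020, near the peptidyl transferase centre, by 1.26, 1.38 and 1.63 (SE 0.25) from 332 to 422 FPKM in DMSO. L3 AT1G43170, also near that centre, fell by 1.07, 1.28 and 1.29 (SE 0.19). L7a AT3G62870 fell by 1.25, 1.43 and 1.72 (SE 0.25), L7 AT2G44120 by 1.12, 1.59 and 1.67 (SE 0.21) and L6 AT1G18540 by 1.25, 1.39 and 1.60 (SE 0.20). All of these had limma adjusted p-values of 0.00136 or less. The smallest fall of the large subunit with each compound, among genes that passed, was that of L7 AT3G13580, at 44.99, 55.1 and 49.6 FPKM in DMSO against 41.7, 36.3 and 29.2 in AMF4, with a log2 fold change of -0.74, -0.79 and -0.48 (SE 0.15, limma adjusted p = 0.0011, 0.00076 and 0.0185). L10 AT1G26910, the minor L10 copy, missed the threshold with ABA (-0.58, adjusted p = 0.101). Of the 50-mers of L9 AT1G33120 53.4% are shared with AT1G33140, of L6 AT1G18540 38.1% with AT1G18530, of L6 AT1G74060 36.3% with AT1G74055 and of L8 AT4G36130 21.4% with AT4G36140, so these values are uncertain. The other 10 large subunit genes that passed with all compounds, among them L10 AT1G14320 at 429 to 516 FPKM in DMSO and 137 to 240 in AMF4, had log2 fold changes of -1.16 to -0.81 with ABA, -1.42 to -0.92 with AMF1 and -1.54 to -1.04 with AMF4.

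S6, the ribosomal target of S6 kinase, had the largest fall of the small subunit with both AMF compounds. AT4G31700 was at 154, 216 and 147 FPKM in DMSO, 64.4, 86.8 and 61.4 in ABA, 47.4, 49.6 and 45.5 in AMF1 and 55.8, 42.3 and 32.2 in AMF4. No treated library reached the lowest control, and the log2 fold change was -1.27, -1.82 and -1.98 (SE 0.24, limma adjusted p = 0.000771, 4.02e-05 and 9.26e-06), the last of which is 3.94-fold lower. S4 AT5G07090 fell by 1.38, 1.47 and 1.72 (SE 0.23), S3a AT3G04840 by 1.18, 1.54 and 1.82 (SE 0.23) and S5 AT2G37270 by 1.19, 1.60 and 1.82 (SE 0.24). S18 AT1G22780, known for the pointed first leaves of its mutant (PFL), fell by 1.13, 1.71 and 1.71 (SE 0.26), its copy AT1G34030 by 1.15, 1.47 and 1.56 (SE 0.23), and S2 AT2G41840, at the entry of the messenger RNA channel, by 1.16, 1.49 and 1.47 (SE 0.23). These 6 genes had limma adjusted p-values of 0.00373 or less. S5 AT3G11940, known as AML1, fell by 0.91, 1.19 and 1.23 (SE 0.20). The other 10 small subunit genes that passed with all compounds included all 3 S3 genes and the highly expressed S8 AT5G20290, at 365 to 423 FPKM in DMSO and 122 to 227 in AMF4, and their changes ran from -1.07 to -0.59 with ABA, -1.43 to -0.78 with AMF1 and -1.48 to -0.91 with AMF4. S8 AT5G59240, at 0.345 to 1.34 FPKM in DMSO, was the one gene that passed with no compound (-0.09, -0.32 and -0.09, adjusted p = 0.858, 0.4 and 0.822). S9 AT5G39850 passed with ABA and AMF1 and not with AMF4 (-0.57, adjusted p = 0.0638). With AMF4 it passed under median-of-ratios scaling (-0.63, limma adjusted p = 0.0432) and quantile normalization (-0.69, limma adjusted p = 0.0274). Its call with ABA (-0.70, limma adjusted p = 0.0349) and with AMF1 (-0.80, limma adjusted p = 0.0169) was lost in 8 and 4 of 14 alternative settings.

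**Figure D3:**
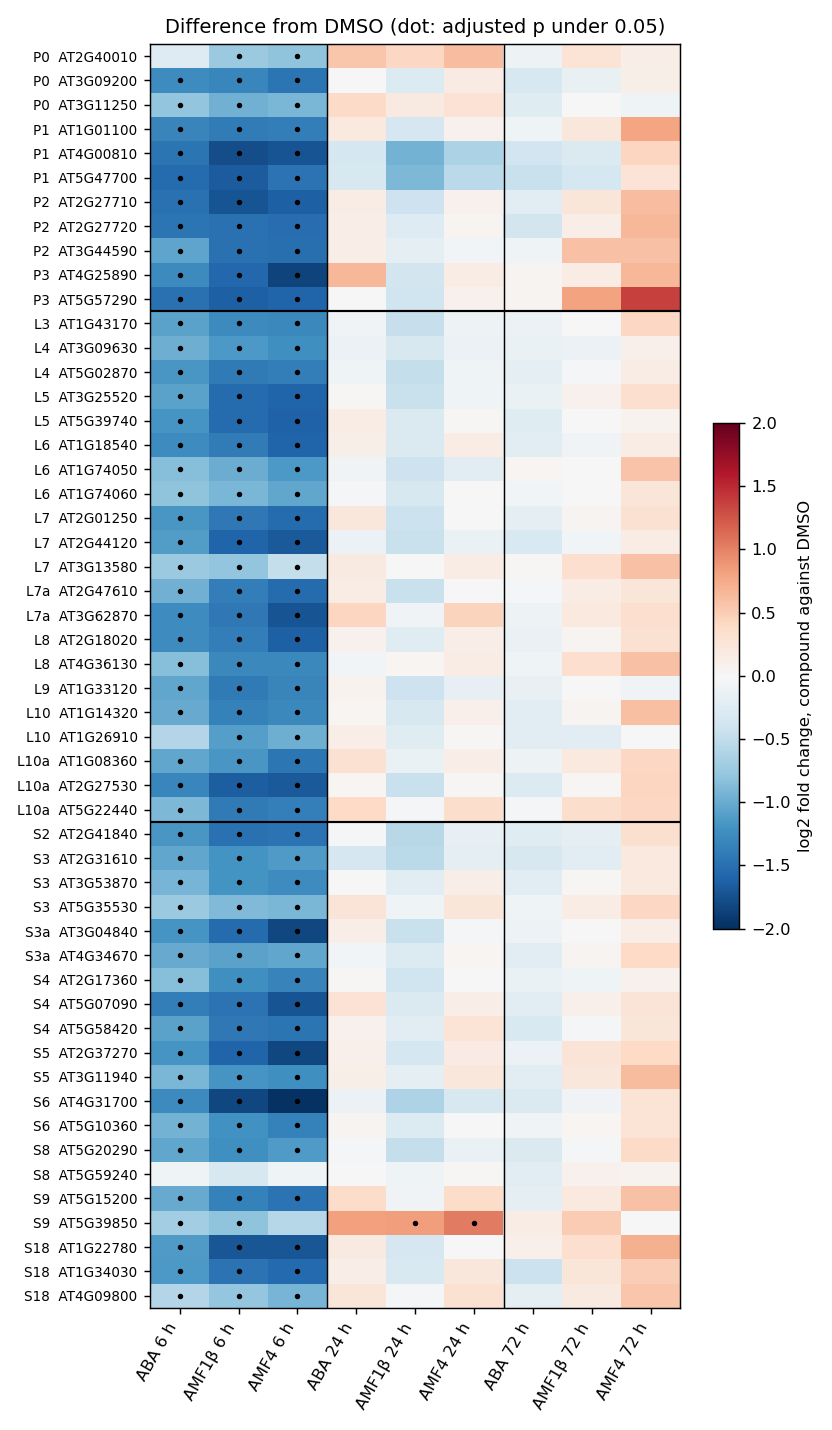
Log2 fold change from DMSO of each of the 52 genes (rows, stalk above large and small subunit) for each compound and time (columns), from blue (lower) to red (higher), with a dot where the limma adjusted p is under 0.05. The 3 columns of 6 h are blue with 49, 51 and 50 dots, and the 24 h columns hold dots only for S9 AT5G39850 with AMF1 and AMF4.

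Libraries and markers that stood apart were set beside these values. Depth cannot be read directly from FPKM, and the steps of the low values gave a relative depth of 0.457 to 1.88 between libraries. AMF4 replicate 1 at 6 h listed 21835 genes at 1 FPKM or more, against 16265 to 16872 in the other libraries. The clock gene LHY was at 27.9, 10.6 and 0.436 FPKM in DMSO replicates 1, 2 and 3 at 6 h and at 0.433 to 0.983 in the treated libraries. In LHY replicate 3 thus lay in their range and replicates 1 and 2 above it. Another clock gene, CCA1, was at 25.2, 9.32 and 2.24 FPKM in these replicates and at 3.93 to 7.23 in the treated libraries. In CCA1 replicate 3 lay below the treated range, so it did not match the treated libraries in both clock genes. DMSO replicate 3 had a mean of 6.84 over the 52 genes, still above all treated libraries. With it as the only control at 6 h, 23 genes were lower with ABA, 48 with AMF1 and 47 with AMF4, with median changes of -0.999, -1.22 and -1.32. Its lone library is then assumed to vary like the other groups, and the shares of all genes for these counts are not given here. Without both it and AMF4 replicate 1, the numbers were 48, 50 and 50, again with the shares of all genes not given here. The summed FPKM of 5 leaf markers was 34669 to 50464 in DMSO, 25782 to 37295 in ABA, 26678 to 37371 in AMF1 and 14065 to 28681 in AMF4, and 3 of the 5 fell with AMF4: RBCS1A by 1.05, LHCB1.1 by 1.19 and CAB3 by 1.43. The summed FPKM of 7 markers of dividing cells was 5.80 to 6.26, 2.80 to 9.46, 4.28 to 5.36 and 3.17 to 9.27 in the same order. Each of these markers had a median of at most 1.52 FPKM over the libraries. The summed FPKM of 4 meristem markers was 3.43 in AMF4 replicate 1 at 6 h and at most 0.0898 in every other library, with CLV3 at 0 in all. That of 4 root markers was 9.12 and 7.40 in AMF4 replicates 1 and 2 at 6 h, 2.72 to 4.44 in the other 6 h libraries and 9.26 in DMSO replicate 2 at 24 h. This sum came mainly from SHR, the only one of the 4 above the low-level filter, with a median of 3.93 FPKM. PRP3, RHD6 and TIP2;3 had medians of 0 and reached at most 1.53, 0.591 and 0.818 FPKM. The part of these libraries and markers in the ribosomal protein values was not tested. The ABA response was present in the same libraries: HAI1 averaged 3.995 FPKM in DMSO and 76.1, 33.8 and 63.4 in ABA, AMF1 and AMF4, and RD29B 1.05 against 56.5, 10.3 and 22.9.

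Other genes of the translation machinery gave a frame for the 52. Of 139 other cytosolic ribosomal protein genes, 134, 137 and 136 were lower at 6 h with ABA, AMF1 and AMF4 (medians -1.25, -1.50 and -1.55). These medians lie between those of stalk and body with ABA and next to the stalk with the AMF compounds, so the stalk did not stand apart from cytosolic ribosomal proteins in general by this description. Of 27 plastid ribosomal protein genes, 4, 12 and 24 were lower (medians -0.58, -0.89 and -1.09). Among 12 ribosome assembly and nucleolar factors 8, 10 and 9 were lower, with the rRNA-methylating fibrillarin FIB2 at -1.49, -1.61 and -1.49, and among 17 cytosolic translation factors 12 were lower with each compound, led by RACK1C, a scaffold on the small subunit, which fell by 2.11 with AMF1 (limma adjusted p = 4.7e-05) and 1.97 with AMF4. In the list of TOR and S6 kinase signalling 0 of 8 genes were lower by limma at 6 h. TOR rose by 0.40 with AMF1 and 0.37 with AMF4 (limma adjusted p = 0.0357 and 0.0393) and was at 0.23 with ABA (adjusted p = 0.241). S6K1 was at 0.05, 0.05 and -0.28 (adjusted p = 0.875, 0.895 and 0.233) and S6K2 at 0.25, 0.43 and 0.37 (adjusted p = 0.66, 0.395 and 0.429). Transcripts of these kinases say nothing of their activity, which was not measured here.

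**Figure D4:**
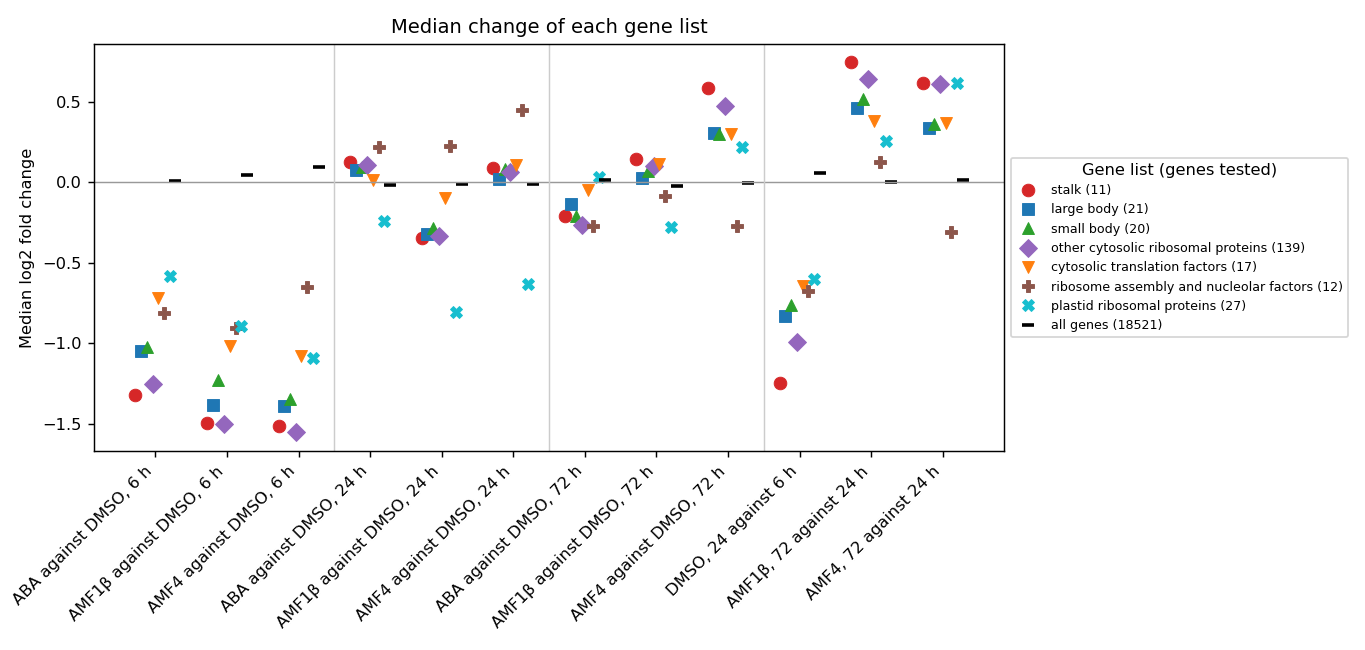
Median log2 fold change of each gene list, for each comparison with DMSO at 6, 24 and 72 h and for 3 comparisons of times within a treatment. Each symbol is the median over the tested genes of a list, and at 6 h the cytosolic ribosomal protein lists lie between -1.55 and -1.02, plastid ribosomal proteins between -1.09 and -0.58 and all genes near 0.

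The compounds were compared with each other at matched dose and time, in 9 pairs, with p-values adjusted over all genes in each. At 6 h 0 of the 52 genes passed limma in any of the 3 pairs, and at an unadjusted p under 0.05 there were 10 for AMF1 against ABA, 14 for AMF4 against ABA and 1 for AMF4 against AMF1. All genes together gave 98, 290 and 0 calls in these pairs. The median difference of stalk, large and small subunit genes was -0.18, -0.26 and -0.27 for AMF1 against ABA, -0.13, -0.37 and -0.34 for AMF4 against ABA and 0.01, -0.07 and -0.05 for AMF4 against AMF1. The 95% intervals of single genes reached from -1.12 to 0.52, from -1.24 to 0.66 and from -0.93 to 0.78. AMF1 and AMF4, which differ only in their fluorine atoms, were thus not told apart in these genes at 6 h, though differences of up to 0.93 on the log2 scale lie within the intervals. At 24 h 0 genes passed limma in the 3 pairs (17, 0 and 5 at an unadjusted p under 0.05 for AMF1 against ABA, AMF4 against ABA and AMF4 against AMF1). The medians over the 52 were -0.40, -0.03 and 0.35, with intervals from -1.68 to 0.48, from -1.25 to 0.82 and from -0.48 to 1.25. At 72 h 0 genes passed limma in any pair, with 0, 13 and 3 at an unadjusted p under 0.05. The shares of all genes at an unadjusted p under 0.05 are not given here. These unadjusted counts are descriptions and are not read as differences between compounds.

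In control leaves alone most of the 52 genes fell between 6 and 24 h. In DMSO 48 of 52 were lower at 24 h than at 6 h (limma, 17.3% of all genes), 11 of 11 stalk, 20 of 21 large and 17 of 20 small subunit genes, with medians of -1.25, -0.83 and -0.77. P3 AT4G25890 went from 72.4, 65.4 and 71.6 FPKM to 28.5, 10.7 and 42.6, a fall of 1.52 (SE 0.32, limma adjusted p = 0.000717). The major S9 copy AT5G15200 went from 377, 377 and 388 to 160, 76.2 and 229 FPKM, a fall of 1.43 (limma adjusted p = 0.00024), and P2 AT2G27710 and P1 AT4G00810 fell by 1.46 and 1.44. In both genes first named the 24 h libraries were widely spread, with replicate 2 lowest and replicate 3 highest, and still below all 6 h libraries. L4 AT3G09630 (-0.39, adjusted p = 0.0545), S3a AT4G34670 (-0.43, adjusted p = 0.053), S3 AT2G31610 (-0.45, adjusted p = 0.0759) and S8 AT5G59240 did not pass. With DMSO replicate 3 as the only 6 h library the count was 24. LHY was at 0.433 to 27.9 FPKM in the 6 h libraries and at 105 to 294 in those of 24 and 72 h. Time of day and time after spraying cannot be told apart in this design.

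In compound-treated leaves the genes that passed between 6 and 24 h with all libraries in the fit rose. From 6 to 24 h 4 genes rose with ABA (15.6% of all genes were higher), L4 AT3G09630 by 0.46, L6 AT1G18540 by 0.54, S3a AT4G34670 by 0.52 and S9 AT5G39850 by 0.77. Leaving out ABA replicate 1 at 24 h or replicate 3 at 6 h gave 0, and leaving out replicate 1 at 6 h gave 1. With AMF1 3 rose, again a smaller share than the 14.5% of all genes. They were AT3G09630 (by 0.43), L10a AT5G22440 (0.55) and AT5G39850 (0.89), and 1 gene passed on leaving out AMF1 replicate 1 or 2 at 24 h or any AMF1 replicate at 6 h. With AMF4 26 rose (15.1% of all genes), 2 stalk, 11 large and 13 small subunit genes, with medians of 0.33, 0.58 and 0.64. The 2 stalk genes were both P0 copies, AT3G09200 (0.67) and AT2G40010 (0.53). AT2G40010 was at only 0.177 to 0.734 FPKM in AMF4 at 6 h and 1.05 to 1.28 at 24 h. Its reads may belong to AT2G40008, so this value is uncertain. The count was 2 without AMF4 replicate 1 at 24 h, 14 without replicate 2 at 24 h and 13 without replicate 3 at 6 h, of which 12 rose and 1, P1 AT5G47700, fell by 0.73.

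At 24 h treated and control leaves were close in these genes. Against DMSO 0 of 52 genes passed with ABA by limma (0.464% of all genes were higher), 4 had an unadjusted p under 0.05 and the median was 0.10. With AMF1 and with AMF4 1 gene was higher, beside 2.39 and 4.44% of all genes, and in both it was the minor S9 copy AT5G39850. The median over the 52 genes was -0.31 with AMF1, with 48 of them below 0 (16 had an unadjusted p under 0.05), against a median of 0.04 with AMF4. Among tested genes of over 1000 to 1500 nt other than cytosolic ribosomal protein genes, 58.1% were below 0 with AMF1. The shares of all genes at an unadjusted p under 0.05 are not given here. The P1 copies were the lowest values with AMF1 at 24 h, AT4G00810 at -0.94 (adjusted p = 0.0834) and AT5G47700 at -0.90 (adjusted p = 0.0747), and did not pass, while AT1G01100 was at -0.34. Replicate 2 of DMSO at 24 h was the lowest control, and without it 9 genes were lower with AMF1 (share of all genes not given here). These included P1 AT4G00810 (-1.31) and AT5G47700 (-1.17). The call of AT5G39850 with AMF1 was lost without any one of the 3 DMSO libraries at 24 h and without AMF1 replicate 1 or 3, and that with AMF4 without either AMF4 library or DMSO replicate 2, while 3 genes were higher with AMF4 without DMSO replicate 3 (AT5G39850, P0 AT2G40010 and L7a AT3G62870). The summed FPKM of the 7 markers of dividing cells was 5.90 to 8.48 in DMSO at 24 h and 4.31 to 5.80 in ABA. It was 2.37 to 3.84 in AMF1 and 1.84 to 2.93 in AMF4, and 3.94 in the lone DMSO library at 72 h. The single markers had medians of 0.126 to 1.52 FPKM, near the low-level filter. The part of this sum in these values was not tested.

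S9 AT5G39850 was at 5.54, 4.02 and 6.45 FPKM in DMSO at 24 h, 11.4, 9.30 and 9.54 in ABA, 9.42, 7.996 and 13.6 in AMF1 and 11.5 and 12.1 in AMF4. All treated libraries were above all controls. Its log2 fold change was 0.82 with ABA (adjusted p = 0.0891), 0.83 with AMF1 (SE 0.23, limma adjusted p = 0.0392) and 1.03 with AMF4 (SE 0.25, limma adjusted p = 0.0129). The call was lost in 6 of 13 alternative settings with AMF1 (adjusted p from 0.0322 to 0.173) and in 3 of 12 with AMF4 (0.0119 to 0.121). The gene encodes the same small subunit protein as AT5G15200, which stood at 160, 76.2 and 229 FPKM in DMSO and 120, 154 and 130 in AMF1. At 72 h AT5G39850 was at 10.7 FPKM in DMSO, 11.9 in ABA, 14.1 and 17.2 in AMF1 and 8.27 and 13.6 in AMF4, so that the control had reached the treated range.

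**Figure D5:**
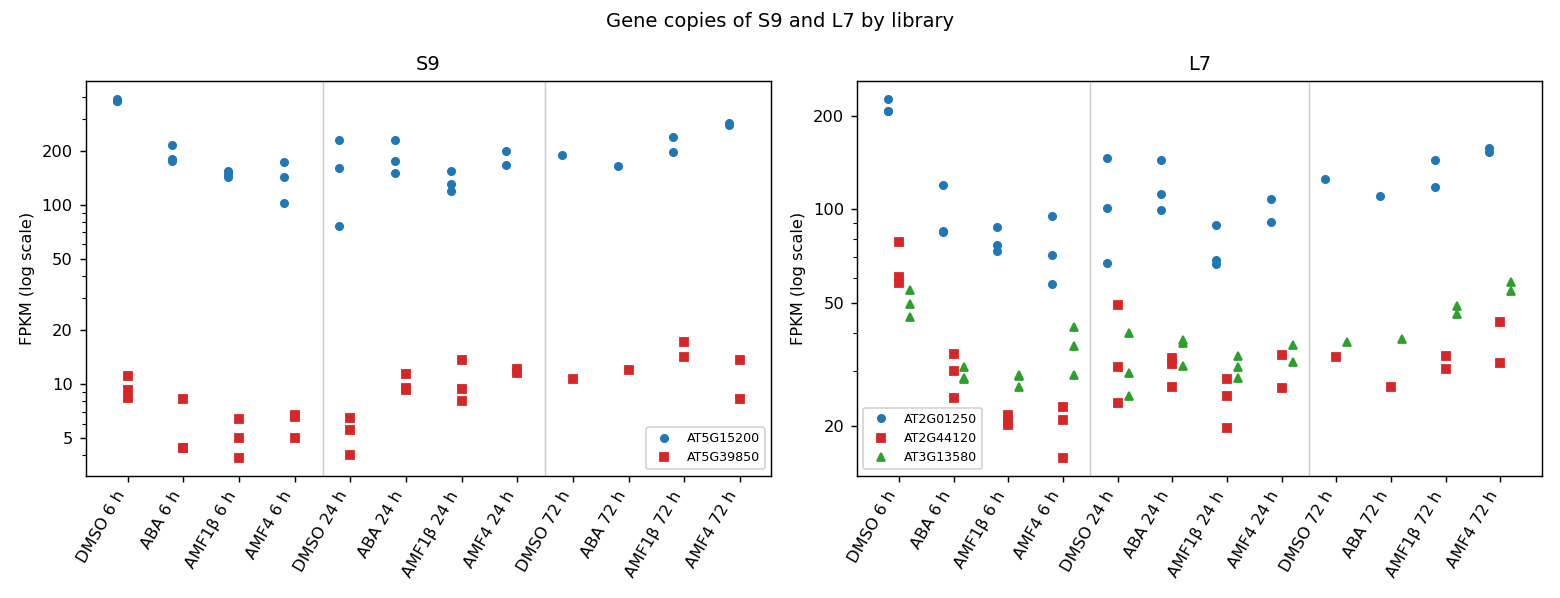
FPKM of the S9 and L7 gene copies in every library, by treatment and time, on a log axis, with a point for each library. The minor S9 copy AT5G39850 lies at 4.02 to 6.45 FPKM in DMSO at 24 h and at 7.996 to 13.6 in the treated libraries, while the major copy AT5G15200 does not separate them.

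After 72 h 0 of the 52 genes passed limma against the lone DMSO library with ABA, AMF1 or AMF4, and 0, 0 and 7 were at an unadjusted p under 0.05. With AMF4 49 of 52 log2 fold changes were above 0, with medians of 0.59, 0.31 and 0.30 for stalk, large and small subunit (0.38, 0.0777 and 0.12 under quantile normalization). Both AMF4 libraries were above the lone DMSO library in 43 genes, a weak separation. The shares of all genes for the 49 and the 43 are not given here. Among tested genes other than cytosolic ribosomal protein genes, 34% of those of over 700 to 1000 nt were below 0. Of those of over 1000 to 1500 nt, 43.4% were below 0. P3 AT5G57290 was at 209 and 190 FPKM in AMF4, 98.4 and 186 in AMF1, 79.7 in ABA and 76.7 in DMSO, a log2 fold change of 1.37 with AMF4 (95% interval 0.37 to 2.36, adjusted p = 0.171). P1 AT1G01100 was at 300 and 267 FPKM in AMF4 against 163 in DMSO (0.79, adjusted p = 0.339). With the DMSO libraries of 24 and 72 h pooled as the control, 11 genes were higher with AMF4 and 1 with AMF1. Within AMF4, 2 genes rose from 24 to 72 h by limma, no larger a share of the 52 than the 4.16% of all genes. They were L7 AT3G13580, by 0.70 (limma adjusted p = 0.0212), and S5 AT3G11940, by 0.81 (limma adjusted p = 0.0442). The medians of stalk, large and small subunit genes were 0.62, 0.34 and 0.36. Within AMF1, 0 genes passed limma and 32 were at an unadjusted p under 0.05, with medians of 0.75, 0.46 and 0.52. The shares of all genes for the 7 and 32 at an unadjusted p, and for the 11 and 1 with pooled controls, are not given here. The DMSO and ABA groups at 72 h are 1 library each, so these intervals and p-values take their spread from the other groups and assume that the lone libraries vary like them.

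Whether a compound's effect differed between 24 and 6 h was tested as an interaction. The difference from DMSO was higher at 24 h than at 6 h in 44 genes with ABA (3.53% of all genes), 11 with AMF1 (1.19%) and 47 with AMF4 (4.48%). By stalk, large and small subunit these were 8, 18 and 18 genes, 3, 4 and 4, and 9, 19 and 19, with medians of 1.27, 1.102 and 1.08, of 1.15, 1.03 and 1.00 and of 1.48, 1.52 and 1.41. The largest were P3 AT4G25890 with ABA (1.94, SE 0.45, limma adjusted p = 0.0107), S9 AT5G39850 with AMF1 (1.63, SE 0.32, limma adjusted p = 0.0249) and L7a AT3G62870 with AMF4 (2.16, SE 0.38, limma adjusted p = 0.00235). The 3 interactions share all DMSO libraries of both times, and DMSO itself fell between these times. Counts moved with single libraries. The ABA count was 28 and 23 without ABA replicates 1 and 3 at 24 h, 21 and 19 without ABA replicates 1 and 3 at 6 h, 23 without DMSO replicate 2 at 24 h and 24 without DMSO replicate 2 at 6 h. The AMF1 count was 46 without DMSO replicate 3 at 24 h, 6 and 5 without AMF1 replicates 1 and 3 at 6 h, and 0 without any one of AMF1 replicates 1 and 2 at 24 h, AMF1 replicate 2 at 6 h, DMSO replicates 1 and 2 at 24 h and DMSO replicate 2 at 6 h. The AMF4 count was 22 without AMF4 replicate 1 at 24 h. With DMSO replicate 3 as the only 6 h control the counts were 6, 3 and 28.

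Gene copies of a family differed in level, and some shares shifted with treatment and time. One gene gave most of the transcripts of P0 (AT3G09200, 91.4% of the family's summed FPKM on average), L10 (AT1G14320, 97.8%), S8 (AT5G20290, 99.7%), L8 (AT2G18020, 82.7%) and P3 (AT5G57290, 76.8%, from 66.4 to 85.6% over the libraries). P2 was divided between AT2G27720 (47.9%) and AT2G27710 (46.4%), with 5.72% from AT3G44590. Among P1 genes AT1G01100 gave 36.3% in DMSO at 6 h and 48.6, 49.5 and 51.1% in ABA, AMF1 and AMF4 at 24 h, against 39.5% in DMSO at 24 h. The S6 copy AT4G31700 gave 47.5% in DMSO at 6 h and 41.8, 36.9 and 36.8% in ABA, AMF1 and AMF4, and the S3a copy AT3G04840 63.9% against 61.1, 56.2 and 50.7%. Shares of the less responsive copies were higher, as for L7 AT3G13580 (15.2% in DMSO at 6 h and 27.6% in AMF4) and S18 AT4G09800 (42.7% in DMSO and 56.8% in AMF1). The minor S9 copy AT5G39850 gave 2.44% in DMSO and 3.30% in AMF1 at 6 h, and 3.70% in DMSO and 7.26% in AMF1 at 24 h. These shares are means over the libraries of a group and were not tested.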

How the data were processed

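RNA of leaves was sequenced on an Illumina HiSeq, and the authors aligned reads with TopHat to TAIR10 and computed transcript levels with Cufflinks; no version or strand setting was stated. The deposited values are FPKM per gene for 29 libraries, with no counts, so depth is unknown and only a relative depth could be estimated. Levels were tested as log2(FPKM + 1), pseudocount 1, for genes with at least 1 FPKM in at least 2 libraries, with limma 3.58.1 in R 4.3.3: 12 group means over all libraries, empirical Bayes with a trend, two-sided moderated tests, Benjamini-Hochberg adjustment over all genes tested per comparison, threshold 0.05. No library pair was identical. The fit was tested on simulated data. Tables and plots used Python 3.11.15, pandas 2.3.3 and matplotlib 3.10.9. The members, gene lists and tests were chosen with earlier results of these data known. Named were all stalk genes, the 10 body genes with the largest absolute log2 fold change among those passing in each comparison with DMSO, copies with the highest and lowest level, at most 3 genes per other list that passed with the largest change, and TOR, S6K1, S6K2, HAI1, RD29B and LHY; L3 AT1G43170, S5 AT3G11940, L7 AT3G13580 and genes that missed the threshold were named after their values were seen. Promoters and transcripts are from RefSeq TAIR10.1. Alternatives were another pseudocount, no filter, other scalings, a replicate block, time points fitted alone, pooled controls and libraries left out. Protein sequences were not analysed here.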

Additional observations from a re-analysis of the deposited data

Results flagged for a closer look

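Effects of the compounds that differed between time points were tested by limma as the difference from DMSO at 24 h minus that at 6 h. This difference was above 0 at an adjusted p under 0.05 in 44 of the 52 genes with ABA (3.53% of all genes), 11 with AMF1 (1.19%) and 47 with AMF4 (4.48%). All share the DMSO libraries of both times, in which 48 of the 52 genes were themselves lower at 24 h than at 6 h. The largest values were 1.94 on the log2 scale for P3 AT4G25890 with ABA, 1.63 for S9 AT5G39850 with AMF1 and 2.16 for L7a AT3G62870 with AMF4. For AT4G25890 the DMSO libraries went from 65.4 to 72.4 FPKM at 6 h to 10.7 to 42.6 at 24 h and the ABA libraries from 24.3 to 33.1 to 32.9 to 43.4. For AT5G39850 DMSO went from 8.31 to 11.01 FPKM to 4.02 to 6.45 and AMF1 from 3.87 to 6.38 to 7.996 to 13.6, so that the order of control and treated libraries turned. The 11 genes with AMF1 became 46 without DMSO replicate 3 at 24 h and 0 without AMF1 replicate 1 at 24 h. The 44 with ABA became 19 without ABA replicate 3 at 6 h, and the 47 with AMF4 became 22 without AMF4 replicate 1 at 24 h.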

How the results depend on the processing

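Of 152 single-gene results under 2125 alternatives, 2072 kept their direction and side of the threshold, 53 lost the call and 0 reversed; 32 of the 53 were under the removal of DMSO replicates 1 and 2 at 6 h, an alternative chosen after seeing the data. That removal gave 23 lower genes with ABA at 6 h, 24 lower genes in DMSO from 6 to 24 h, and interaction counts of 6, 3 and 28 with ABA, AMF1 and AMF4. Without AMF4 replicate 1 and DMSO replicate 3 at 6 h together, AMF1 against ABA at 24 h gave 1 gene, and AMF1 against DMSO at 24 h gave 1 higher and 1 lower gene (P1 AT5G47700), and AMF4 gave 2 higher. Without a filter, AMF1 against DMSO at 24 h gave 0 and AMF1 from 6 to 24 h gave 1. With log2(FPKM + 0.1) and with quantile normalization AMF4 against DMSO at 24 h gave 2 each. With the 24 and 72 h DMSO libraries pooled as controls, AMF1 at 72 h gave 1 and AMF4 11. The cause of these moves was not tested.

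Leaving out single libraries gave 48 to 49 lower genes with ABA at 6 h, 50 to 51 with AMF1 and 49 to 50 with AMF4. It gave 0 to 9 against DMSO at 24 h with AMF1 (9 without DMSO replicate 2) and 0 to 3 with AMF4, and interaction counts of 19 to 49, 0 to 46 and 22 to 50 with ABA, AMF1 and AMF4. From 6 to 24 h the counts were 0 to 3 with ABA, 1 to 4 with AMF1, 2 to 27 with AMF4 and 37 to 51 in DMSO. All other comparisons of treatments stayed at 0, and the single 72 h libraries of DMSO and ABA could not be left out. Stalk medians at 6 h ranged from -1.42 to -1.15 with ABA, -1.59 to -1.41 with AMF1 and -1.81 to -1.28 with AMF4 over all alternatives. Of 951 alternative values of 75 subgroup medians, 38 moved by more than the spread between replicates.

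Replicate numbers did not pair the libraries: deviations of same-numbered libraries correlated at -0.25 to 0.24 (median -0.03), over 0.1 in 9 of 35 pairs, and 9 of 27 libraries correlated best with their own number. With the replicate number as a block, 49, 51 and 50 genes were lower at 6 h with ABA, AMF1 and AMF4, the interaction counts were 42, 9 and 45, and AMF1 from 6 to 24 h gave 1. FPKM carry no read depth, so low copies such as S8 AT5G59240 and P0 AT2G40010 have unknown counting error.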
